A study of Menidia menidia with 24 samples.

Results

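DCE2 (mme12220, glutamate decarboxylase 2) and VGL2A (mme00235, vesicular glutamate transporter 2) are 2 of the 20210 annotated genes counted in larvae of the Atlantic silverside, Menidia menidia. They were picked by their identifiers, with symbols taken from the study's differential expression list. The part of that list that could be read held 1299 rows, all of them transcripts listed for CH versus CC, so both members were chosen through that comparison and their change in it is given as a description without a test. Each member was a single entry in the count files, and both passed the filter on low counts that left 17262 transcripts for testing.

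Glutamate decarboxylase converts glutamate, the main excitatory transmitter of the vertebrate brain, into gamma-aminobutyric acid (GABA), the main inhibitory one, and marks the neurons that release GABA. Vesicular glutamate transporters pump glutamate into synaptic vesicles and mark the neurons that release glutamate. The same amino acid is therefore the substrate of one protein and the cargo of the other. In mammals glutamate decarboxylase 2 is also made by the endocrine cells of the pancreas.

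The study asked whether exposing parents to combined hypoxia and acidification (HypOA) before spawning changes how their offspring respond to it. RNA of 24 individual wild-type whole larvae was sequenced at 19 days post-fertilization (dpf), with 6 larvae in each of 4 groups whose first letter gives the parental treatment and whose second letter gives the offspring treatment. CC larvae had control parents and control rearing, CH larvae control parents and HypOA rearing, HC larvae HypOA-treated parents and control rearing, and HH larvae HypOA in both generations. Per the labels, control rearing meant 100% dissolved oxygen with 600 µatm pCO2, HypOA rearing meant 35% dissolved oxygen with 2500 µatm pCO2, and all larvae were kept at 20 °C. The levels measured in the paper differ, with more oxygen and less pCO2 in HypOA rearing, more pCO2 in control rearing and a slightly higher temperature. The parents were wild fish that received HypOA at night and control water by day, and the gametes of several males and females were pooled for each parental group, so each parental treatment rests on 1 fertilization. Larvae were matched by age and not by size. In the paper, larvae reared under HypOA were shorter at this age, and offspring of HypOA-treated parents grew more slowly after hatching. The females that spawned for the HypOA-treated group were also smaller on average. The part of size in the differences below was not tested. Larvae were taken in pairs from rearing containers that the labels do not give. The p-values below therefore treat larvae of a container, and larvae of a parental pool, as independent. With 1 pool per parental treatment, the treatment and the pool of parents cannot be told apart.

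Counted reads per larva ranged from 11688851 to 16120500, and every larva had at least 972 reads of DCE2 and 304 reads of VGL2A. Levels are given as CPM, the read count relative to the size of the library, after TMM scaling, which adjusts library sizes for composition. Transcript lengths were not used, so levels are compared between larvae and not between the genes. The whole-larva origin was visible in marker transcripts: 10 pan-neuronal, 4 glial and 8 skeletal muscle transcripts were counted in every larva, and 4 of 12 exocrine pancreas transcripts were at 0 in at least 1 larva. A lower level in whole-larva RNA can come from fewer cells of a type or from less RNA per cell, and these cannot be told apart here.

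DCE2 was lowest in CC and highest in HH. In CC larvae it ranged from 75.2 CPM (CC 2) through a median of 96.6 to 102.9 CPM (CC 3), with a mean of 94.2±10.6 CPM (s.d., n=6). In CH larvae it ranged from 109.7 (CH 4) through a median of 119.7 to 160.1 CPM (CH 1), with a mean of 126.6±18.8 CPM. Every CH larva lay above every CC larva, as did 2.01% of all tested transcripts in that comparison, and this separation is part of what chose the gene. In HC larvae DCE2 ranged from 99.3 (HC 5) through a median of 113.6 to 139.3 CPM (HC 3), with a mean of 117.1±16.3 CPM. In HH larvae it ranged from 116.4 (HH 5) through a median of 134.1 to 165.9 CPM (HH 6), with a mean of 137.0±18.6 CPM. The HC range thus overlapped those of all other groups, while CC did not overlap CH or HH.

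VGL2A followed the same order of groups at a lower number of reads. In CC larvae it ranged from 24.9 CPM (CC 4) through a median of 26.9 to 28.9 CPM (CC 3), with a mean of 27.1±1.51 CPM (s.d., n=6). In CH larvae it ranged from 32.7 (CH 4) through a median of 39.9 to 49.8 CPM (CH 6), with a mean of 40.3±5.55 CPM. All larvae of CH, HC and HH lay above all CC larvae, as did 2.01%, 0.556% and 2.87% of all tested transcripts in these comparisons. The separation of CH from CC is part of what chose the gene. In HC larvae VGL2A ranged from 30.8 (HC 5) through a median of 34.2 to 45.6 CPM (HC 3), with a mean of 35.8±5.18 CPM. In HH larvae it ranged from 35.9 (HH 4) through a median of 45.2 to 68.9 CPM (HH 6), with a mean of 47.5±12.5 CPM. The HH larvae were spread more widely than the others, and HH 6 held the highest level of both genes among the 24 larvae.

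**Figure D1:**
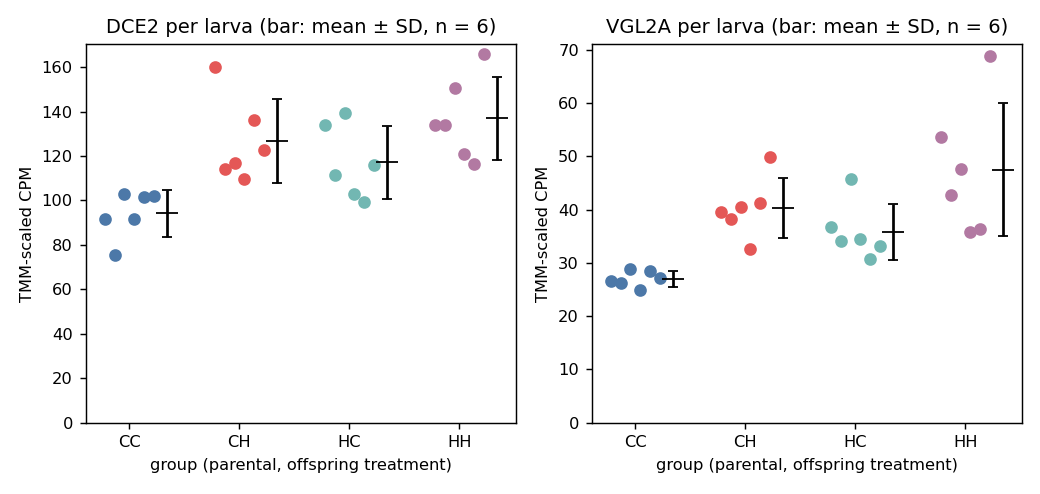
TMM-scaled CPM of DCE2 (left) and VGL2A (right) in each larva, by group (first letter parental treatment, second letter offspring treatment); points are larvae and the black bar is the mean ± s.d. of 6 larvae. For both genes the CC mean is the lowest (94.2 and 27.1 CPM) and the HH mean the highest (137.0 and 47.5 CPM), and the VGL2A larvae of CC lie below all others. Full separation above CC was seen for 2.01% (CH), 0.556% (HC) and 2.87% (HH) of all transcripts, and both genes were chosen through CH versus CC.

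Among offspring of control parents, HypOA rearing went with more of both transcripts. DCE2 was 1.34 times as high in CH as in CC (log2 difference 0.43±0.11, ± standard error of the edgeR fit) and VGL2A 1.49 times (log2 difference 0.57±0.13). Of all transcripts, 9.25% were called in this comparison at a Benjamini-Hochberg false discovery rate (FDR) below 0.05, 4.99% as higher and 4.26% as lower in CH. These differences are what brought the genes onto the list, so nothing is read from them.

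HH versus HC asks the same rearing question in offspring of HypOA-treated parents, and shares no larvae with CH versus CC. Neither gene passed the FDR threshold there. DCE2 was 1.17 times as high in HH as in HC (log2 difference 0.23±0.11, 95% interval -0.01 to 0.46, edgeR FDR=0.639), and all 6 HH larvae lay above the HC median while 2 lay above the highest HC larva. A full separation of HH above HC, which neither gene showed, was seen for 0.4% of all transcripts. The share of transcripts with all 6 HH larvae above the HC median was not computed. VGL2A was 1.33 times as high (log2 difference 0.41±0.13, 95% interval 0.13 to 0.68, edgeR FDR=0.328), again with all 6 HH larvae above the HC median and with 3 above the highest HC larva. Fitted on HH and HC larvae alone, the log2 differences were 0.23±0.11 for DCE2 (edgeR FDR=0.491) and 0.41±0.15 for VGL2A (edgeR FDR=0.355). In the fit of all groups the VGL2A difference rested in part on HH 6, without which it was 0.27 (edgeR FDR=0.654). In this comparison 4 transcripts, 0.0232% of those tested, were called (0.00579% as higher and 0.0174% as lower in HH), and the count ran from 2 without HH 4 to 8 without CC 2.

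The size of the rearing difference was smaller in offspring of HypOA-treated parents for both genes, with wide intervals. The difference of the log2 rearing differences, (HH versus HC) minus (CH versus CC), was -0.20 for DCE2 (95% interval -0.53 to 0.13) and -0.17 for VGL2A (95% interval -0.56 to 0.22). Both intervals included 0. Since CH versus CC chose the genes, the values are given as a description. They also moved with single larvae, from -0.26 without HH 6 to -0.12 without CH 1 for DCE2 and from -0.30 without HH 6 to -0.08 without HC 3 for VGL2A.

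Parental treatment, averaged over both rearing conditions, was compared as the mean of HC and HH against the mean of CC and CH. The larvae of CC and CH enter it with equal weight, so it does not reuse the difference by which the genes were chosen. Its interval and FDR do use the spread of these larvae, which that choice can make narrower. DCE2 averaged 127.0±19.6 CPM in the 12 offspring of HypOA-treated parents (99.3 to 165.9, median 127.3) and 110.4±22.3 CPM in the 12 offspring of control parents (75.2 to 160.1, median 106.3). VGL2A averaged 41.6±10.96 CPM (30.8 to 68.9, median 36.5) against 33.7±7.92 CPM (24.9 to 49.8, median 30.8). The ranges of the parental groups overlapped for both genes. The log2 difference was 0.21±0.08 for DCE2 (1.16-fold, 95% interval 0.05 to 0.38) and 0.32±0.09 for VGL2A (1.25-fold, 95% interval 0.13 to 0.52). Taken alone the intervals lay above 0, but neither gene passed the threshold over all transcripts (edgeR FDR=0.169 for DCE2 and 0.0957 for VGL2A), where 112 transcripts or 0.649% were called (0.353% as higher and 0.295% as lower). That count moved between 5 without HH 6 and 276 without CC 1.

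The means of both genes were higher in offspring of HypOA-treated parents in each rearing condition. The sizes differed between the rearing conditions by the values given above for the rearing differences, whose intervals included 0. Choosing the genes through CH versus CC can also widen HC versus CC and narrow HH versus CH. After control rearing, HC exceeded CC by 0.31±0.11 on the log2 scale for DCE2 and by 0.40±0.13 for VGL2A. Here 4 of 6 HC larvae lay above the highest CC larva for DCE2, and 6 of 6 for VGL2A, a separation that 0.556% of all transcripts showed. After HypOA rearing, HH exceeded CH by 0.11±0.11 for DCE2 and by 0.24±0.13 for VGL2A. Both 95% intervals included 0 (-0.12 to 0.35 for DCE2 and -0.04 to 0.51 for VGL2A). The HH and CH larvae overlapped, with 1 HH larva above the highest CH larva for DCE2 and 2 for VGL2A, against a full separation in 0.631% of all transcripts. Without HH 6 these log2 differences were 0.05 and 0.10, so a single larva carried much of the gap.

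The order of the group means was CC, HC, CH, HH for both genes, and its neighbours were not equally far apart. CH exceeded HC by a log2 difference of 0.11±0.11 for DCE2 and 0.17±0.13 for VGL2A, with the ranges overlapping, where 0.765% of all transcripts had every CH larva above every HC larva. That gap depended on single larvae, being 0.03 for DCE2 without CH 1 and 0.10 for VGL2A without CH 6. In these means HC, with parental exposure alone, stood nearer to CH, with own exposure alone, than to CC, and the difference of these distances was not tested. The widest gap was HH versus CC, with 0.54±0.11 for DCE2 (1.45-fold) and 0.81±0.13 for VGL2A (1.75-fold), where no larva of one group overlapped the other, as for 2.87% of all transcripts. The comparisons HC versus CC, HH versus CH, CH versus HC and HH versus CC reuse CC or CH larvae, so they are given without a test.

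**Figure D2:**
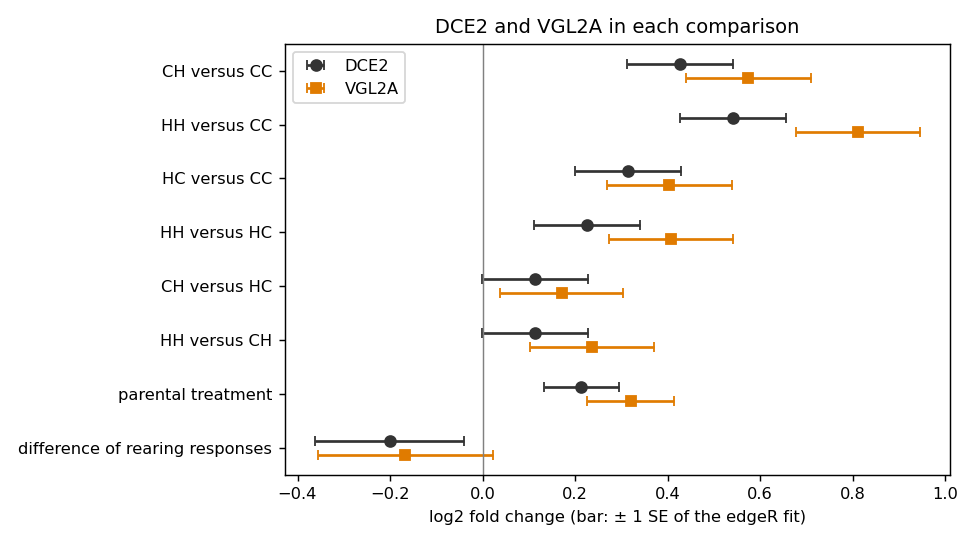
Log2 fold change of DCE2 (circles) and VGL2A (squares) in the 6 pairwise comparisons, for parental treatment and for the difference of rearing responses; bars are ± 1 standard error of the edgeR fit. VGL2A lies to the right of DCE2 in each of the 6 pairwise comparisons, from 0.17 against 0.11 in CH versus HC to 0.81 against 0.54 in HH versus CC.

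Within groups, larvae varied less in DCE2 than in most transcripts, while the spread of VGL2A depended on the group. The s.d. of log2 CPM within a group was 0.17 to 0.20 for DCE2, against a median over all transcripts of 0.26 to 0.32. Counting error widens the spread of transcripts with few reads, and transcripts of like read number were not compared. In CC larvae VGL2A had an s.d. of 0.08, and 0.776% of transcripts had a smaller one. Its coefficient of variation there, 5.57%, was close to the 5.39% that counting error alone gives at its read number. In HH larvae the s.d. of VGL2A was 0.36 and 69.9% of transcripts had a smaller one, so its spread went from one of the narrowest in CC to above the median in HH. The HH spread rested in part on HH 6, at 68.9 CPM against 53.5 CPM for HH 1, the next highest. The s.d. without HH 6 was not computed. Choosing the gene through CH versus CC can also favour a narrow spread in CC.

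As both genes are known for their roles in neurons, their levels were set against those of 10 pan-neuronal transcripts. These encode ELAV2, an RNA-binding protein of neurons, the neuronal enolase ENOG, the growth cone protein NEUM, the synaptic fusion protein SN25A, the microtubule proteins STMN4 and MTAP2, the calcium sensor VISL1 and the sodium channel SCN2A. All 10 had themselves been listed for CH versus CC. Their summed level was 706±126 CPM for CC (583 to 888), 910±63.5 for HC (810 to 993), 1083±72.2 for CH (969 to 1181) and 1045±110 for HH (956 to 1241). The mean sums rose in the order CC, HC, HH, CH, against CC, HC, CH, HH for both members. CC lying below CH was part of the choice of the members and of these 10 transcripts, so nothing is read from it. The part of the neuronal sum in the differences of DCE2 and VGL2A was not tested.

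Relative to the neuronal sum, DCE2 stood at similar levels in HC and HH. The log2 ratio of DCE2 to the sum was -2.90±0.18 for CC (s.d., n=6) and -3.11±0.15 for CH, and -2.97±0.14 for HC and -2.94±0.12 for HH. HH differed from HC by 0.03 on this scale, less than the s.d. within either group. The parental difference of 0.05 averaged values of opposite sign, with HC 0.07 below CC and HH 0.17 above CH. DCE2 and all 10 neuronal transcripts were listed for CH versus CC, so nothing is read from the ratio in that comparison.

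VGL2A had its highest mean on the same scale in HH. Its log2 ratio to the neuronal sum was -4.69±0.22 for CC and -4.76±0.19 for CH, and -4.68±0.16 for HC and -4.49±0.23 for HH. HH was 0.18 above HC, a gap between the s.d. of HC and that of HH. HH 6 held the highest ratio of all larvae (-4.17), and the gap without it was not computed. The parental difference of 0.14 averaged 0.01 after control rearing and 0.26 after HypOA rearing. As for DCE2, nothing is read from CH versus CC on this scale.

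**Figure D3:**
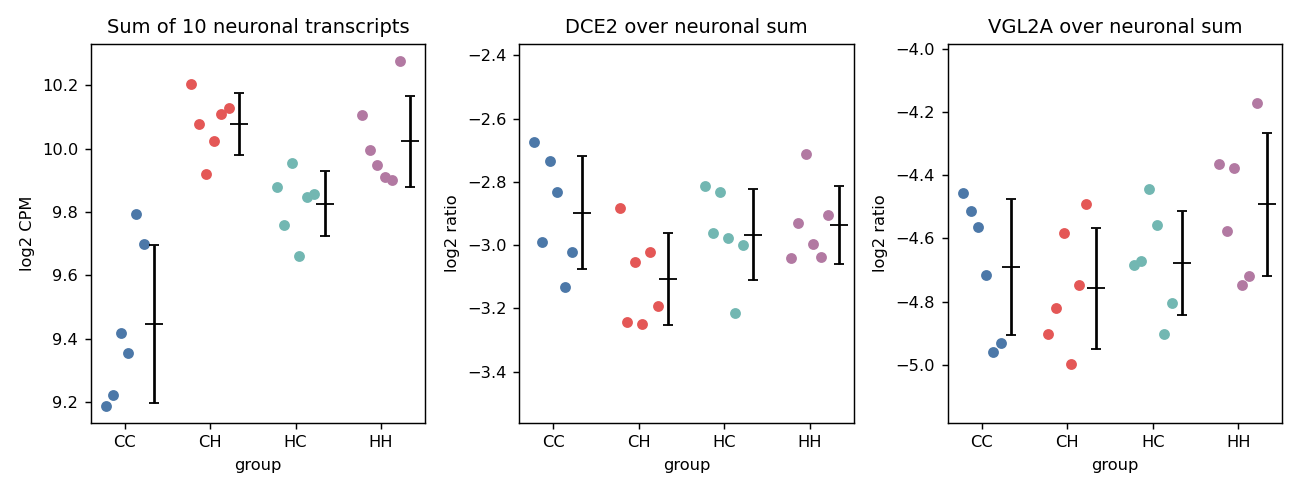
Log2 of the summed CPM of 10 pan-neuronal transcripts (left), and log2 ratios of DCE2 (middle) and VGL2A (right) to that sum, per larva and group, with axes of equal span; black bars are mean ± s.d. of 6 larvae. The mean DCE2 ratios of HC and HH lie close together (-2.97 and -2.94), and the mean VGL2A ratio is highest in HH (-4.49).

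By group means, the level of VGL2A relative to DCE2 was also lowest in CC and highest in HH. The log2 ratio of VGL2A to DCE2 CPM was -1.79±0.14 for CC and -1.65±0.24 for CH, and -1.71±0.11 for HC and -1.56±0.21 for HH. HH exceeded HC by 0.15 in this ratio, less than the s.d. within HH. The HH mean rested on HH 6 (-1.27) and HH 1 (-1.32). HH 2 to HH 5 (-1.75 to -1.65) lay inside the HC range (-1.87 to -1.58). The means without HH 6 and HH 1 were not computed. HH exceeded CC by 0.24, which was larger than either s.d., but CC larvae took part in the choice of both genes, so this is a description.

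Other tissues moved between the groups as well. The sum of 4 glial transcripts was 54.5±5.89 CPM for CC and 68.1±4.28 for CH, and 70.4±11.8 for HC and 77.5±6.72 for HH. The glial cell adhesion protein HECAM and the myelin protein MYPR were the transcripts of this list that passed the parental test, with log2 differences of 0.57±0.13 (edgeR FDR=0.0413) and 0.55±0.13 (edgeR FDR=0.0428), where 0.649% of all transcripts were called. HC versus CC and HH versus CH gave 0.85±0.18 and 0.30±0.17 for HECAM, and 0.27±0.18 and 0.83±0.18 for MYPR. The larger value involved CC for HECAM and CH for MYPR, the lower group of each in CH versus CC, which chose them. These calls were not recomputed with single larvae left out. Of these 4 glial transcripts DESeq2 called 3, GPM6B in addition, and limma-voom called 1. Over all 17262 transcripts DESeq2 called 478 and limma-voom 97 for parental treatment, against 112 with edgeR. The 4 did not move alike. MYPR fell from 11.7 CPM in CC to 7.62 CPM in CH, against the glial sum. MLC1 was highest in CH (16.8 CPM), with a parental log2 difference of 0.007. GPM6B, which is not restricted to glia, made up the largest part of the glial sum, with 28.7 CPM in CC and 42.9 CPM in HH. After removing group means it correlated with DCE2 at r=0.738, against 0.157 to 0.283 for HECAM, MLC1 and MYPR. The glial sum therefore does not stand for glia alone. The sum of 8 skeletal muscle transcripts was instead highest in CC, with 6005±1035 CPM for CC and 2857±845 for CH, and 4701±1424 for HC and 3762±1154 for HH. The sum of 12 exocrine pancreas transcripts was 288±489 CPM for CC and 21.8±13.5 for CH, and 70.4±54.2 for HC and 19.2±5.56 for HH. The pancreas mean of CC was raised by CC 1 (1279 CPM), and without that larva, left out after its value was seen, it was 89.4 CPM. CC had the highest mean of the muscle and pancreas sums and the lowest of the neuronal and glial sums, and it was also lowest in DCE2 and VGL2A. All transcripts of these lists were, like the members, on the CH versus CC list. The place of CC relative to CH was therefore part of their choice, and nothing is read from it. The part of these tissues in the differences of both genes was not tested.

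Around the members, 31 further transcripts of transmitter signalling had a symbol, and all of them were on the CH versus CC list by the way symbols were obtained. In HH versus HC, 24 of the 31 were higher in HH and none passed edgeR's FDR threshold, with 10 at an unadjusted P below 0.05, all of them higher, a level that 8.24% of all transcripts reached. For parental treatment 24 of the 31 were higher in offspring of HypOA-treated parents, none passed and 6 were at an unadjusted P below 0.05, all higher. That is near the share of all transcripts, of which 17.4% reached this level. Both shares count either direction. In CH versus CC, 12 of 14 inhibitory, 11 of 12 glutamate and 4 of 5 cholinergic transcripts were called higher in CH. HH versus HC asks the same rearing question, so the direction of the 24 and of the 10 can follow from this choice. The share among all transcripts listed for CH versus CC was not computed, so no excess of transmitter signalling is read from these counts. Over all transcripts the median log2 difference was -0.0018 in HH versus HC and -0.005 for parental treatment. DESeq2 and limma-voom called 0 of the 31 in either comparison. The lowest edgeR FDR among them was 0.274 in HH versus HC and 0.0957 for parental treatment.

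Inhibitory signalling without DCE2 held 14 transcripts, for transporters and receptors of GABA and glycine, receptor anchoring and the chloride gradient. Their median log2 difference was 0.04 in HH versus HC, with 9 higher and 5 lower in HH, against 0.23 for DCE2. For parental treatment the median was 0.12, with 12 higher, against 0.21 for DCE2. DCE2 thus lay above the median of its pathway in both.

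VIAAT, which fills synaptic vesicles with GABA and glycine and so acts directly downstream of DCE2, was counted as 2 transcripts with different group orders. VIAAT (mme03034) averaged 16.4±1.09 CPM for CC and 22.2±2.63 for CH, and 20.0±3.51 for HC and 24.4±4.10 for HH, the same order as DCE2. CC below CH was part of the choice of VIAAT and DCE2, so nothing is read from the shared order. Its log2 difference was 0.28±0.12 in HH versus HC (edgeR FDR=0.522) and 0.21±0.09 for parental treatment (edgeR FDR=0.201). VIAAT (mme07651) averaged 27.1±4.89, 38.2±3.54, 33.1±4.44 and 34.3±2.30 CPM in the same groups, with CH and not HH highest. Its log2 differences were 0.05±0.11 (edgeR FDR=0.963) and 0.07±0.08 (edgeR FDR=0.690).

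The plasma membrane transporter SC6A1, which clears GABA from the synapse, was also counted as 2 transcripts. SC6A1 (mme03084) averaged 64.2±11.8 CPM for CC and 113.1±13.9 for CH, and 83.3±8.65 for HC and 109.1±15.2 for HH. Its HH versus HC log2 difference of 0.39±0.12 (edgeR FDR=0.275) was the largest of the inhibitory transcripts. SC6A1 (mme07234) averaged 52.2±8.48, 76.6±8.40, 68.6±7.01 and 84.5±11.97 CPM, in the order of the members, with a parental log2 difference of 0.27±0.08 (edgeR FDR=0.0957). As for VIAAT, nothing is read from the shared order. Neither SC6A1 transcript passed the threshold in either test.

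S6A13, a GABA and taurine transporter that in mammals is found mainly in liver, kidney and the coverings of the brain, ran opposite to DCE2 between CC and CH. Its transcripts and DCE2 were chosen through that comparison, so this direction is a description. S6A13 (mme01931) averaged 62.3±26.5 CPM for CC and 36.5±7.99 for CH, and 49.8±10.0 for HC and 45.2±11.3 for HH, and S6A13 (mme10389) averaged 4.98±2.37, 1.71±0.47, 4.02±1.11 and 3.37±0.99 CPM. Their HH versus HC log2 differences were -0.14±0.22 and -0.25±0.28, the second being the lowest of the inhibitory transcripts, and neither passed (edgeR FDR=0.939 and 0.898). Among the 8 transcripts of GABA and glycine receptors, their anchoring proteins and the chloride gradient, the HH versus HC log2 differences lay between -0.21 for the GABA receptor subunit GBRR3 and 0.17 for the anchoring protein GEPH, with a median of 0.03.

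Glutamate signalling without VGL2A held 12 transcripts, 11 of them higher in HH than in HC with a median log2 difference of 0.24, against 0.41 for VGL2A. The 9 receptor transcripts were all higher in HH, from 0.09 for the delta receptor GRID1 to 0.48±0.19 for the AMPA receptor subunit GRIA4 (mme04873, edgeR FDR=0.470), with a median of 0.36. For parental treatment 10 of the 12 were higher, with a median of 0.13 against 0.32 for VGL2A. None of the 12 passed edgeR's threshold in either comparison, where 6 and 3 had an unadjusted P below 0.05 (8.24% and 17.4% of all transcripts), and DESeq2 and limma-voom called 0. As 11 of the 12 were called higher in CH than in CC, their shared direction in HH versus HC can follow from that choice.

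EAA2, the transporter that removes glutamate from the synapse and is mainly glial in mammals, averaged 263±33.1 CPM for CC and 392±37.1 for CH, and 345±29.3 for HC and 412±65.9 for HH. It shared the group order of VGL2A, with log2 differences of 0.26±0.10 in HH versus HC (edgeR FDR=0.481) and 0.23±0.07 for parental treatment (edgeR FDR=0.11). CC below CH was part of the choice of EAA2 and VGL2A. The other neighbouring gaps of EAA2 were small, with 0.19±0.10 for CH versus HC and 0.07±0.10 for HH versus CH, so nothing is read from the shared order. The glutamine transporter S38A3 was counted as 2 transcripts that ran opposite ways between CC and CH, the comparison by which both were chosen. S38A3 (mme03319) averaged 51.2±5.46, 70.1±10.97, 63.7±7.06 and 71.9±4.64 CPM in CC, CH, HC and HH, while S38A3 (mme03166) averaged 89.0±16.4, 61.0±10.5, 80.9±16.6 and 67.3±8.63 CPM. Their HH versus HC log2 differences were 0.17±0.10 and -0.27±0.14, and neither passed (edgeR FDR=0.708 and 0.671).

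The 5 cholinergic transcripts, among them the acetylcholine-synthesizing enzyme CLAT, gave a comparison outside both pathways. In HH versus HC 4 of them were higher, with a median log2 difference of 0.17 and a range from -0.20 for the receptor subunit ACHB to 0.35 for CLAT. For parental treatment 2 were higher and the median was -0.01. The 10 pan-neuronal transcripts were all higher in both comparisons, with medians of 0.23 and 0.18, which are near the DCE2 values of 0.23 and 0.21 and below the VGL2A values of 0.41 and 0.32. Their HH versus HC log2 differences ran from 0.04 for STMN4 (mme12379) to 0.29 for SN25A. None of the 10 passed edgeR's threshold in either comparison, with 5 and 6 at an unadjusted P below 0.05 (8.24% and 17.4% of all transcripts) and 0 called by DESeq2 or limma-voom. As all 10 were called higher in CH than in CC, their shared direction in HH versus HC can follow from that choice.

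**Figure D4:**
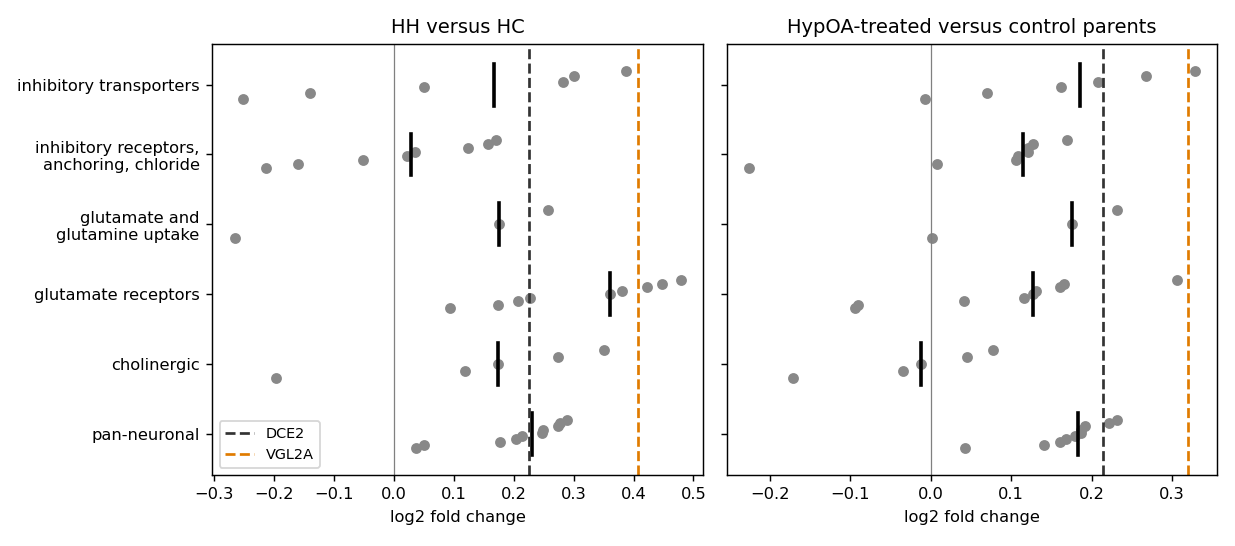
Log2 fold change of each transcript (grey points) of the lists for inhibitory transporters, inhibitory receptors with anchoring and chloride gradient, glutamate and glutamine uptake, glutamate receptors, cholinergic and pan-neuronal transcripts in HH versus HC (left) and for HypOA-treated versus control parents (right); black ticks are list medians and dashed lines mark DCE2 and VGL2A. The VGL2A line (0.41 and 0.32) lies right of the medians of these 6 lists, and the DCE2 line (0.23 and 0.21) lies left of the median of the glutamate receptors in HH versus HC (0.36).

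Larvae that were high in DCE2 for their group also tended to be high in VGL2A. After removing group means, log2 CPM of the genes correlated across the 24 larvae with Pearson's r=0.642 (permutation p=0.00144) and Spearman's rho=0.679 (permutation p=0.00122), from 100000 two-sided permutations of larvae within groups. This was the single relation tested. Without CH 1 and HH 6, the larvae farthest from the median in DCE2, r was 0.654 (permutation p=0.00093) and rho 0.773 (permutation p=1e-04) over 22 larvae. Within groups of 6 larvae r was 0.613 for CC and 0.261 for CH, and 0.841 for HC and 0.897 for HH. By rank the groups were closer, with a rho of 0.771 for CC, HC and HH and 0.6 for CH.

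Single larvae show where the relation held and where it did not. HH 6 was above its group mean by 0.29 in log2 DCE2 and 0.57 in log2 VGL2A, and HC 3 by 0.26 and 0.36. CH 4, HC 5, HH 4 and HH 5 were low in both genes. CH 1 was high in DCE2 (0.35) and not in VGL2A (-0.02), and CH 6 was high in VGL2A (0.32) and not in DCE2 (-0.03), and CH had the lowest r of the groups. The group-centred neuronal sum also correlated with each gene over the 24 larvae (r=0.656 for DCE2 and 0.520 for VGL2A), and the total of counted reads correlated with r=-0.0707 and r=-0.395. Larvae share containers and all values of a larva share its library and its tissue composition, and their part in the relation was not tested.

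**Figure D5:**
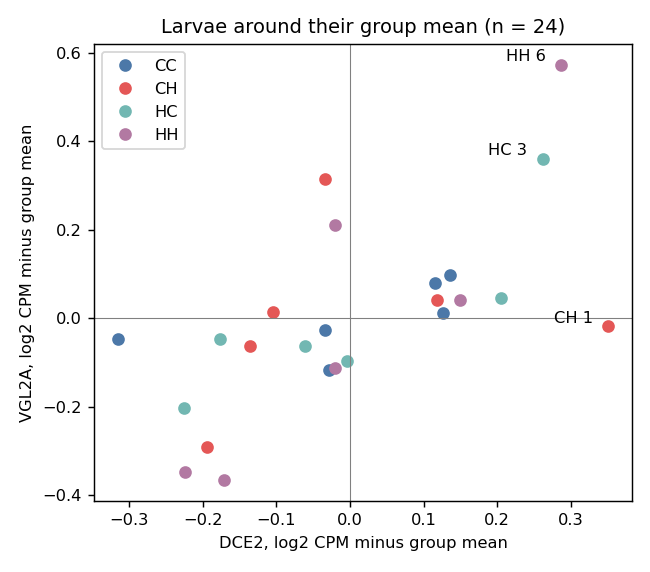
Log2 CPM of DCE2 (x axis) and VGL2A (y axis) in each of 24 larvae after subtracting the mean of its group, coloured by group. The points run from low in both genes to high in both (r=0.642), with HH 6 at the upper right (0.29 and 0.57) and CH 1 apart at high DCE2 (0.35) with average VGL2A.

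The transcripts closest to each member in this group-centred pattern were ranked by Pearson's r over the 24 larvae among 17261 others. For DCE2 the first 5 were TSN7 (mme08414), a tetraspanin membrane protein, with r=0.890, mme00502 with r=0.851, mme15475 with r=0.840, VIAAT (mme03034) with r=0.833 and mme11184 with r=0.827. For VGL2A they were mme14938 with r=0.801, mme18466 with r=0.777, mme15364 with r=0.770, VIAAT (mme03034) with r=0.762 and mme14450 with r=0.761. The identifiers without a symbol were not in the rows that could be read. VIAAT (mme03034) stood at rank 4 for both members, while the members themselves stood at rank 233 for VGL2A seen from DCE2 and at rank 44 for DCE2 seen from VGL2A. The median r over all transcripts was -0.00662 for DCE2 and 0.00417 for VGL2A, and 15 transcripts had an r above 0.8 with DCE2 against 1 with VGL2A.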

How the data were processed

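Reads of directional libraries from 24 whole larvae were aligned with STAR 2.6.1d and counted per transcript with HTSeq 0.11.1 by the authors, per the labels' processing notes (trimming is credited to Trimmomatic there and to Fastp in the paper). The deposited values are raw counts. The reads were aligned to a published silverside genome whose build name is not given in the sources used here, nor are HTSeq's strand and overlap settings. Reads shared by overlapping genes or similar copies are therefore of uncertain assignment, and whether the transcripts that share a symbol (VIAAT, SC6A1, S6A13, S38A3) share reads was not tested.

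Entries were summed per gene (20651 to 20210). Reads on no feature (20.8%), ambiguous (0.563%) or at several sites (5.32%) were left out. The filterByExpr filter (at least 10 reads, total of 15) was applied, and libraries were scaled by TMM factors (0.861 to 1.18). Larvae within a group differed by at least 12.6 times the chi-square that sampling gives, so none was a copy.

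All 24 larvae, grouped by their titles, entered one edgeR 4.0.16 quasi-likelihood model (R 4.3.3) in which each group had its own coefficient, after the study's methods, at an FDR below 0.05 over 17262 transcripts. Standard errors are the log2 fold change divided by the square root of F. Log2 CPM used a prior count of 2. Alternatives were DESeq2 1.42.0, limma-voom (limma 3.58.1), RLE factors, other filters, the newer quasi-likelihood form, HH and HC alone, an additive model, a prior count of 0.25, a replicate block and each larva left out. The code was tested on simulated counts. Members, lists and named transcripts (the members, the transporters, the extremes of each list and the 5 closest transcripts by correlation) were chosen with earlier results of these data known. Sequences and coordinates were not used here.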

Additional observations from a re-analysis of the deposited data

How the results depend on the processing

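The log2 fold changes of DCE2 and VGL2A kept their direction, and in HH versus HC and for parental treatment their side of the threshold, under the alternatives run and with each larva left out. The ratios to the neuronal sum and of VGL2A to DCE2 were not recomputed. Under the alternatives to the main fit, the edgeR, DESeq2 or limma-voom FDR of HH versus HC lay between 0.491 and 0.665 for DCE2 and between 0.230 and 0.396 for VGL2A, and that of parental treatment between 0.145 and 0.192 and between 0.0562 and 0.120. With single larvae left out the log2 difference in HH versus HC ran from 0.16 to 0.28 for DCE2 and from 0.27 to 0.49 for VGL2A, and that of parental treatment from 0.18 to 0.25 and from 0.25 to 0.36. The lowest value was each time the one without HH 6. The within-group correlation ran from 0.558 without HH 6 to 0.728 without CH 1. The background counts moved more. HH versus HC gave 4 called transcripts in the main fit, 57 with DESeq2, 14 with HH and HC larvae alone, and 2 to 8 with single larvae left out. Parental treatment gave 112 in the main fit, 478 with DESeq2 and 5 to 276 with single larvae left out. The causes were not tested. Same-numbered larvae did not correlate above 0.1 in every pair, so replicate numbers were not taken to pair them. In their deviations from group means 0 of 6 such pairs of HH and HC larvae did (-0.156 to 0.0710), 4 of 6 of CH and HC (-0.165 to 0.245), 1 of 6 of HH and CH, and 0 of 6 in the comparisons with CC. Of the HH larvae 3 of 6 correlated best with the HC larva of their own number. With the replicate block 39 transcripts were called for parental treatment and 3 in HH versus HC, and the block changed no call of DCE2 or VGL2A. Within a group, 6 larvae and at least 304 reads per larva limit the precision.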
